A study of Mus musculus with 4 samples.

Results

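Malat1, Neat1, Meg3, Rian, Mirg, Kcnq1ot1 and Snhg11 are 7 long noncoding RNAs that mouse islet cells express. They were taken by gene symbol from the 32227 genes listed in the single-cell count matrices, and all 7 were found and had counts in β cells of every library. The study compared islet cells of adult mice homozygous for Myt3IM, a short insertion in the Myt3 gene (listed as St18), with those of control mice homozygous for the unaltered allele, both derived from intercrosses of heterozygotes. The insertion is carried by every cell of the mutant mice, and each sample pooled the islets of several males and females, per the study's methods. The study's methods describe islets of mice on a high-fat diet and the inDrop-Seq platform, whereas the sample labels give a normal diet and PIPseq, so neither diet nor platform is settled here, and the exact age of the mice is not given in the labels.

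The values are whole counts, per gene and cell barcode, of unique molecular identifiers (UMIs), short random tags that let copies of a transcript be counted once. Matrices of the libraries labelled mutant 1, mutant 2 and control 2 were analysed. Since control 1 was left out of what follows, there was no spread between control libraries and no test between genotypes. The libraries held 3023, 2045 and 2308 barcodes, of which 2940, 2040 and 2283 were kept, and they shared 0 barcodes. Control 2 stood apart in depth, with a median of 14051 UMIs per kept cell against 2427 in mutant 1 and 3851.5 in mutant 2. Its batch entry in the labels differs in its last digits from that of the other libraries and is not a calendar date, so batch and genotype cannot be told apart. The β cells, in the order mutant 1, mutant 2, control 2, held 587, 765 and 2926 UMIs of St18 (70.8, 86.4 and 109 CPM, UMIs per 1000000 after scaling), and gene counts do not show the inserted bases.

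Long noncoding RNAs are transcripts without a long coding frame. Many act or remain in the nucleus. Malat1 collects in nuclear speckles, where splicing factors are stored, and its share of a cell's RNA is often read as a sign of how much of that RNA is nuclear. Neat1 is the scaffold of paraspeckles, bodies that hold RNA-binding proteins such as Sfpq and Nono. Meg3, Rian and Mirg are expressed from the maternal chromosome of the imprinted Dlk1-Dio3 domain. Rian hosts many small nucleolar RNAs, and Mirg hosts a large cluster of microRNAs. In human islets MEG3 is known for its abundance in β cells. Kcnq1ot1 is transcribed from the paternal chromosome, antisense to the potassium channel gene Kcnq1, and silences neighbouring genes in cis. Snhg11 is a small nucleolar RNA host transcript known from neurons and endocrine cells.

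Positions are those of GENCODE vM21 on GRCm38, while the labels name GRCm39 for the authors' processing, so the coordinates describe the reference and not the counted annotation. Malat1 (ENSMUSG00000092341) lies at chr19:5795690-5802672 on the minus strand, and Neat1 (ENSMUSG00000092274) lies at chr19:5824708-5845478 on the same strand, 22035 bases away. Meg3 (ENSMUSG00000021268, chr12:109541001-109571726), Rian (ENSMUSG00000097451, chr12:109603940-109661716) and Mirg (ENSMUSG00000097391, chr12:109729764-109749460) follow each other on the plus strand, with gaps of 32213 and 68047 bases. From the start of Meg3 to the end of Mirg the RefSeq table lists 57 microRNA hairpins, of which 1 lies within Meg3, 3 within Rian and 14 within Mirg. Kcnq1ot1 (ENSMUSG00000101609, chr7:143203458-143296549) runs on the minus strand wholly within Kcnq1, which occupies the plus strand. Snhg11 (ENSMUSG00000044349) lies at chr2:158375638-158386145 on the plus strand, and is typed as protein coding by GENCODE and as a long noncoding RNA by RefSeq. Meg3 is overlapped on the other strand by Gm26906 over 3096 bases and Malat1 by Gm37376 over 453 bases. Whether counting used strand is not given in the sources used here, so reads of these genes, and above all of Kcnq1ot1 and Kcnq1, could have been exchanged.

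Droplet libraries prime on runs of A, at the poly(A) tail or inside a transcript, so the longest runs of A in 3 of the RNAs are shown first. Capitals mark the run in the GENCODE transcript that holds it.
Malat1 (Malat1-201, bases 6634 to 6705): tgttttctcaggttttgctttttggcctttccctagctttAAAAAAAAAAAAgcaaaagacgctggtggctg
Rian (Rian-201, bases 5269 to 5343): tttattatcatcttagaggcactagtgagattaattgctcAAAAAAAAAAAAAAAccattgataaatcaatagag
Kcnq1ot1 (Kcnq1ot1-201, bases 69525 to 69625): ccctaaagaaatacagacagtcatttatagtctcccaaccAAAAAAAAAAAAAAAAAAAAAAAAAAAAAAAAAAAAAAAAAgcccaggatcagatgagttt

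The runs are 12 bases long in Malat1, 15 in Rian and 41 in Kcnq1ot1, whose transcript of 93092 bases holds 8 runs of 12 or more. No annotated transcript of Neat1, Mirg or Snhg11 holds a run of 12. Among all 7040 annotated transcripts of 5000 bases or more, 19.7% hold one. The 3′ ends that GENCODE annotates for the most abundantly counted members are shown next, with the polyadenylation signal AATAAA in capitals. Whether the counted RNAs, Malat1 included, end or were primed there was not tested.
Malat1 (Malat1-201, bases 6904 to 6983): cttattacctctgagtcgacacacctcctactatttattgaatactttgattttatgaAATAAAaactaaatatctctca
Neat1 (short transcript Neat1-202, bases 2925 to 3004): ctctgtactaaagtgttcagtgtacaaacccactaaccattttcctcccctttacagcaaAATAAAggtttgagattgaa
Meg3 (Meg3-209, bases 14469 to 14548): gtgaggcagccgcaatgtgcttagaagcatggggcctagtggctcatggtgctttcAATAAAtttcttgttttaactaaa

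The signal of Neat1 belongs to its short transcript of 3004 bases. The long transcript, of 20771 bases, ends elsewhere, and the counts do not separate the pair.

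Cells were classed by hormone share and markers, with cut values set after the distributions had been seen. Cells with insulin transcripts (Ins1 and Ins2) at 15% or more of UMIs were classed as β cells, with Gcg at 5% or more as α cells, with Sst at 1% or more as δ cells and with Ppy at 3% or more as Ppy-high cells, by the hormone furthest over its cut. Other cells with at least 3 markers of endothelial cells, leukocytes or stromal cells detected were classed by those. Mutant 1, mutant 2 and control 2 held 2297, 1567 and 2043 β cells, 299, 224 and 37 α cells, 121, 96 and 48 δ cells, 68, 45 and 21 Ppy-high cells, 36, 31 and 36 endothelial cells, and 15, 14 and 12 leukocytes. The 4, 6 and 16 stromal cells were too few for the comparison. The insulin share lay within 20% of its cut in 74, 49 and 49 cells, and 83, 59 and 44 cells passed a second hormone's cut.

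The 9 β markers summed to 49.98 to 61.4% of the UMIs of β cells and the 6 α markers to 19.9 to 21.8% of those of α cells. In δ cells the 4 δ markers summed to 3.82 to 9.51% and the 9 β markers to 12.3 to 13.1%, so the δ class held β-cell transcripts. Of the δ markers 1 of 4 was at 0 in control 2, and the other listed sets of these classes were detected in full. The 2 Ppy-high markers, both hormones, summed to 16.4% in that class of mutant 1, 18.7% in mutant 2 and 41.3% in control 2. They also made up 1.47%, 1.72% and 5.25% of the UMIs of α cells and 2.05%, 1.95% and 5.46% of those of δ cells. The endothelial markers summed to 2.11 to 2.24% in endothelial cells and the leukocyte markers to 1.81 to 2.89% in leukocytes, with all 7 and all 9 detected. The β markers summed to 4.29 to 6.59% in these non-endocrine classes, again more than their own markers. Insulin therefore set the scale for free RNA. Were all insulin in a class carried in from β cells, it would bring the other β-cell RNAs with it in their β-cell ratio, and this amount is set beside the observed UMIs where it bears on a result.

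UMIs were summed per library and class into 18 profiles, scaled by edgeR's TMM method as CPM, and each class was compared with β cells within libraries by edgeR's quasi-likelihood test over 12972 genes. Over the 7 RNAs and 5 classes, 20 of 35 differences passed an adjusted p of 0.05, 7 of them in endothelial cells and 4 in leukocytes. The endothelial calls include that of Snhg11, which rests on 0 UMIs and lends no support. Over all genes 14.7% rose and 19.5% fell in endothelial cells, and 5.2% rose and 16.7% fell in leukocytes. The shares were 8.16% and 10.3% in α cells, 5.44% and 6.48% in δ cells and 4.07% and 6.22% in Ppy-high cells. On this scale Neat1 was highest in β cells. Meg3 and Rian were expressed in all endocrine classes and were low in endothelial cells and leukocytes. The p-values measure how the class differences vary between these 3 pooled samples, taken over all classes together. Differences in level between libraries are taken up by the library term and do not enter them. Lower levels of an RNA in a summed profile cannot be told apart from fewer expressing cells in that class.

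**Figure D1:**
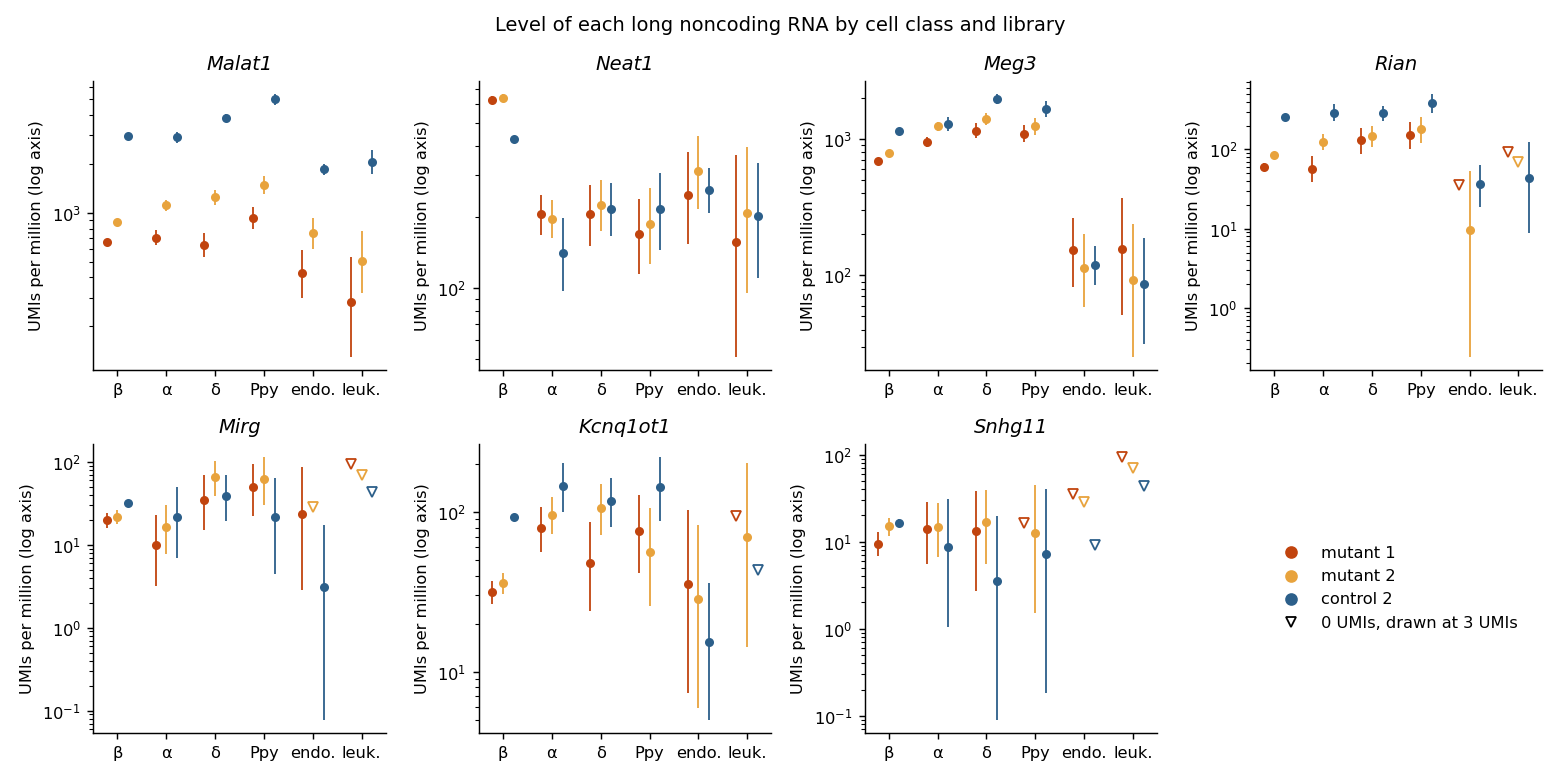
CPM (log axes, 1 per RNA) in each class, for mutant 1, mutant 2 and control 2, with exact 95% Poisson intervals as bars; open triangles mark profiles with 0 UMIs, drawn at the level of 3 UMIs. Neat1 sits highest in β cells of all 3 libraries (628, 640.3 and 428.5 CPM), and Meg3 sits at 157 CPM or less in endothelial cells and leukocytes.

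Neat1, the paraspeckle scaffold, had levels of 628, 640.3 and 428.5 CPM in the β cells of mutant 1, mutant 2 and control 2. In α cells the levels were 206, 197 and 141, in δ cells 205, 225 and 217, and in Ppy-high cells 169, 186 and 215. The highest of these 9 values lay below the lowest β-cell value, so the classes did not overlap. The log2 difference from β cells was -1.62 ± 0.21 (SE) in α cells (adjusted p = 2.9e-12, edgeR), a 3.07-fold lower level. It was -1.37 ± 0.22 in δ cells (adjusted p = 2.08e-08, edgeR) and -1.57 ± 0.24 in Ppy-high cells (adjusted p = 4.42e-09, edgeR). Neat1 was the one member that fell in these classes, where 10.3%, 6.48% and 6.22% of all genes fell.

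In endothelial cells and leukocytes Neat1 was again lower than in β cells on this scale. It had 247, 314 and 261 CPM in endothelial cells, with a log2 difference of -1.01 ± 0.23 (adjusted p = 7.56e-05, edgeR). In leukocytes it had 157, 208 and 201, from 5, 9 and 14 UMIs, with a difference of -1.52 ± 0.31 (adjusted p = 2.19e-05, edgeR). The median over all genes in leukocytes was -1.69, so Neat1 fell no more there than the middle gene. On the TMM scale Neat1 was lower than in β cells in 3 of 3 libraries for each of the 5 classes, and each call was made under all alternative settings listed in the methods that gave a value. CPM of all UMIs was not among those settings for classes. In control 2, β cells held 7453 Neat1 UMIs of 35459217 and δ cells 61 of 279392. Endothelial cells held 85 of 316957 and leukocytes 14 of 52543, so by this share these classes lay above β cells. In mutant 1 and mutant 2 the β-cell share stayed highest. With insulin as the guide to free RNA, 22.1 of the 104 Neat1 UMIs in α cells of mutant 1, 23.1 of 121 in mutant 2 and 4.004 of 33 in control 2 would have been carried in.

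When each cell was thinned to 1000 UMIs, the β cells with a Neat1 UMI made up 31.4%, 34.8% and 21.3% in mutant 1, mutant 2 and control 2. The shares among α cells were 18.9%, 19.6% and 13.5%. The thinning left out 353 and 152 shallower β cells and 45 and 10 α cells of the mutant libraries, and no cells of these classes in control 2. Before thinning, 62.2%, 76.2% and 83.8% of β cells held a Neat1 UMI, with a median of 2765, 4481 and 15987 UMIs per β cell and 1715, 2809.5 and 6589 per α cell. Control 2 had the highest unthinned and the lowest thinned share of β cells. The 1000 UMIs included hormone transcripts, and the β markers summed to 49.98%, 51.4% and 61.4% of the UMIs of β cells. Thinned β cells of control 2 thus kept fewer UMIs of other genes, and the part of this in the shares was not tested.

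Transcripts of paraspeckle proteins were counted beside Neat1. Of 7 such genes tested, 2 rose in α cells against β cells, 1 in δ cells, 1 in Ppy-high cells and 1 in endothelial cells, and 1 fell in leukocytes, where 8.16%, 5.44%, 4.07% and 14.7% of all genes rose and 16.7% fell, in that order. The median log2 difference of the 7 genes in α cells was 0.32, against -0.12 over all genes.

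Malat1, the speckle RNA, varied more between libraries than between endocrine classes. Its β-cell levels were 658, 883 and 2977 CPM in mutant 1, mutant 2 and control 2. In α cells it had 703, 1113 and 2919.9, and in δ cells 634, 1249 and 3829.9. Its log2 difference from β cells was 0.13 ± 0.20 in α cells and 0.28 ± 0.21 in δ cells, with adjusted p-values of 0.733 and 0.475 (edgeR). Among the 6 classes tested, the highest levels of each library were those of Ppy-high cells, at 930.1, 1492 and 4998. There Malat1 rose by 0.67 ± 0.21 (adjusted p = 0.0173, edgeR), a call that was lost without mutant 1 (0.80, adjusted p = 0.0767) and without mutant 2 (0.67, adjusted p = 0.225). The call was also lost with each cell thinned and without the filter on low counts, and was made under 6 of 11 alternative settings.

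In endothelial cells and leukocytes Malat1 was lower than in β cells in 3 of 3 libraries on this scale. The levels were 424, 751 and 1858 in endothelial cells and 282, 508 and 2067 in leukocytes. The log2 difference was -0.54 ± 0.22 in endothelial cells (adjusted p = 0.0462, edgeR) and -0.73 ± 0.25 in leukocytes (adjusted p = 0.0199, edgeR). Both calls were lost when any 1 of the 3 libraries was left out, with differences from -0.70 to -0.21 in endothelial cells and from -0.71 to -0.37 in leukocytes. The leukocyte sums were small, 14563, 26214 and 52543 UMIs, and over all genes the median difference there was -1.69, so their scaling was uncertain and every leukocyte value is relative to it. The direction of Malat1 in both classes moved with the scaling. As a share of all UMIs, Malat1 was higher in endothelial cells, leukocytes and stromal cells than in β cells of each library. Endothelial cells held 36 of 63922, 79 of 83906 and 605 of 316957 UMIs, and β cells 2975 of 7231259, 4300 of 7697185 and 51773 of 35459217.

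**Figure D2:**
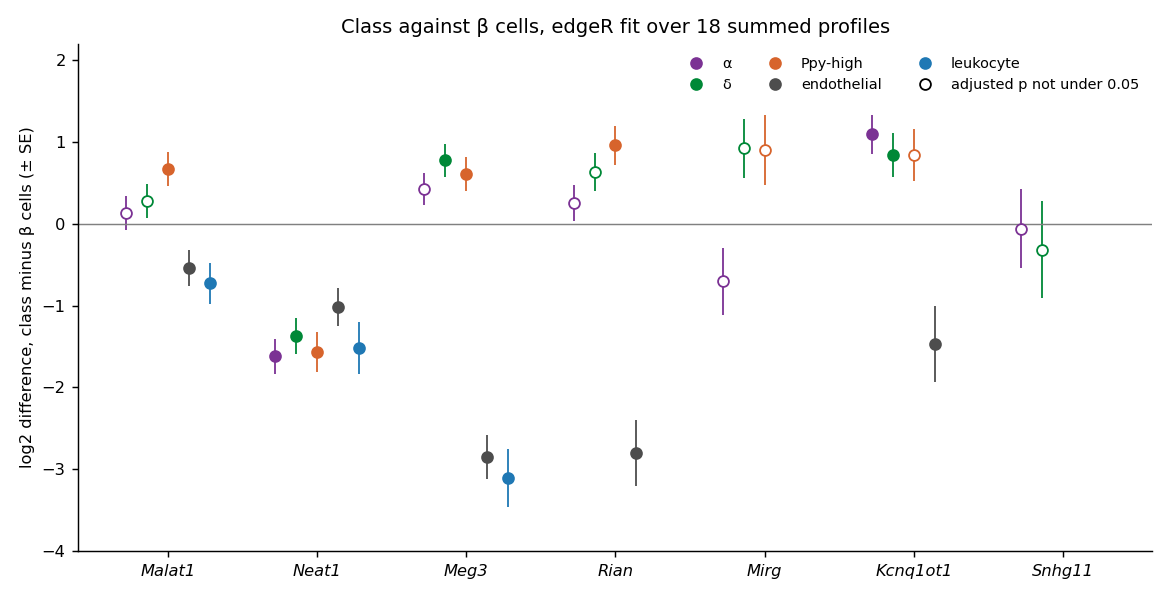
Log2 difference of each class from β cells (vertical axis, ± SE) for each RNA, from the edgeR fit over 18 summed profiles; filled points have an adjusted p under 0.05, and points resting on 3 or fewer UMIs are not drawn. Neat1 lies between -1.62 and -1.01 in all 5 classes, whereas Meg3 lies between 0.43 and 0.78 in the endocrine classes and at -2.85 and -3.11 in endothelial cells and leukocytes.

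The Dlk1-Dio3 RNAs were expressed throughout the endocrine cells. Meg3, the first transcript of the domain, had 689, 793 and 1146 CPM in β cells of mutant 1, mutant 2 and control 2. In α cells it had 949, 1235 and 1293, in δ cells 1150 (263 UMIs), 1402 and 1956, and in Ppy-high cells 1093, 1237 and 1659. Within each library β cells had the lowest of these 4 levels. Meg3 rose by 0.78 ± 0.20 (log2) in δ cells (adjusted p = 0.00185, edgeR) and by 0.61 ± 0.20 in Ppy-high cells (adjusted p = 0.0314, edgeR). In α cells the difference was 0.43 ± 0.20 (adjusted p = 0.128, edgeR), and without control 2 it was 0.53 and passed the test (adjusted p = 2.53e-05). The δ call was lost without mutant 2 (0.79, adjusted p = 0.089), and the Ppy-high call without mutant 1 (0.63, adjusted p = 0.171) or mutant 2 (0.64, adjusted p = 0.231). Both calls were also lost with each cell thinned, and the Ppy-high call without the filter on low counts. The δ call was made under 10 of 12 alternative settings and the Ppy-high call under 7 of 11. β markers were a larger part of the δ class than its own markers, and their part in the Meg3 difference was not tested. On the assumed carry-over with insulin, 17.0, 26.3 and 30.3 of the 263, 412 and 551 Meg3 UMIs in δ cells would be β-cell RNA.

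In endothelial cells Meg3 had 153, 114 and 120 CPM (13, 12 and 39 UMIs), 7.22-fold below β cells. The log2 difference was -2.85 ± 0.27 (adjusted p = 2.4e-24, edgeR). In leukocytes it had 157, 92.4 and 86.1 CPM (5, 4 and 6 UMIs), with a difference of -3.11 ± 0.36 (adjusted p = 2.77e-16, edgeR). Both calls were made under all 12 alternative settings. The insulin guide would bring 2.80, 3.90 and 11.2 Meg3 UMIs into endothelial cells, less than was counted in each library. At 1000 UMIs per cell, a Meg3 UMI was seen in 68.7%, 83.0% and 79.2% of δ cells, 33.7%, 41.4% and 43.8% of β cells, and 23.1%, 10% and 0% of endothelial cells. These 1000 UMIs included hormone transcripts. The β markers, insulin among them, summed to 49.98 to 61.4% of UMIs in β cells and 12.3 to 13.1% in δ cells. Thinned β cells thus kept fewer UMIs of other genes, and the part of this in the gap to δ cells was not tested. Thinning left out 38 δ and 10 endothelial cells of mutant 1, 2 and 1 of mutant 2 and 0 of control 2. Before thinning, 30.6%, 25.8% and 61.1% of endothelial cells held a Meg3 UMI, so the thinned 0% is not an absence of Meg3.

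Rian, the snoRNA host of the domain, had 60.2, 84.0 and 258 CPM in β cells, 57.3, 124 and 291 in α cells, 131, 146 and 288 in δ cells, and 152, 180.3 and 381 in Ppy-high cells. It rose in Ppy-high cells by 0.96 ± 0.24 (adjusted p = 0.00173, edgeR). That call was lost without mutant 1 (0.85, adjusted p = 0.0716) and without mutant 2 (0.95, adjusted p = 0.0594). It was also lost with each cell thinned and without the filter on low counts, and was made under 7 of 11 alternative settings. The difference was 0.63 ± 0.23 in δ cells (adjusted p = 0.0539, edgeR) and 0.26 ± 0.22 in α cells (adjusted p = 0.485, edgeR). Endothelial cells held 0, 1 and 12 Rian UMIs, and the fitted difference was -2.81 ± 0.41 (adjusted p = 5.92e-11, edgeR). Leukocytes held 3 Rian UMIs where the β-cell level would give 23.5, a ratio of 0.128 (95% Poisson interval 0.0263 to 0.373).

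Mirg, the microRNA host at the far end of the domain, was counted sparsely, with 19.7, 21.6 and 31.7 CPM in β cells (89, 105 and 552 UMIs). It had 35.0, 64.7 and 39.0 in δ cells, 49.0, 62.2 and 21.5 in Ppy-high cells, and 9.88, 16.3 and 21.4 in α cells. None of these endocrine differences passed the test. They were 0.92 ± 0.36 in δ cells (adjusted p = 0.0785, edgeR), 0.90 ± 0.43 in Ppy-high cells (adjusted p = 0.19, edgeR) and -0.70 ± 0.41 in α cells (adjusted p = 0.256, edgeR). Without control 2 the first was 1.34 and the second 1.49, and both passed (adjusted p = 0.00539 and 0.00991). Endothelial cells held 3 Mirg UMIs against 14.3 at the β-cell level, a ratio of 0.210 (0.0433 to 0.614), and the call there (adjusted p = 0.0183, edgeR) was lost without mutant 2 and without control 2. Leukocytes held 0 Mirg UMIs, which at 3 counts is at least 1.26-fold lower than the 3.77 UMIs of the β-cell level.

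The promoter of Meg3 is shown because Meg3 was called lower in endothelial cells and leukocytes under all 12 alternative settings. It is RefSeq sequence of GRCm38.p6, chr12:109540746-109541045 on the plus strand, with the searched motifs in capitals.
Meg3 promoter: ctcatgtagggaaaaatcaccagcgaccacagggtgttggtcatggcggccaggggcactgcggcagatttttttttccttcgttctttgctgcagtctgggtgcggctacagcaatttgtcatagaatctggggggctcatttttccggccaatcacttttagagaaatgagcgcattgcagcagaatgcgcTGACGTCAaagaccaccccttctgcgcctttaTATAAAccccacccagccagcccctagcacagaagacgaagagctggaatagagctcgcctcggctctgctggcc

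TGACGTCA, the cyclic AMP response element, begins 57 bases before the annotated start and TATAAA, the core promoter box, begins 25 bases before it, and they do not overlap. Searched on both strands, they occur in 1.79% and 13.6% of 32851 promoters of the same 300 bases. Of 7 promoters that the table lists for 6 of the members, this is the only one with either motif. A match describes the letters of the reference and is not a measured binding site.

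The domain's paternally expressed genes Dlk1, Rtl1 and Dio3 had too few counts to be tested. Other imprinted genes, 20 of 25 tested, gave a mixed picture. Among them 7 rose and 3 fell in α cells, 5 rose in δ cells, 7 rose and 1 fell in Ppy-high cells, 3 rose and 9 fell in endothelial cells, and 8 fell in leukocytes. Over all genes 8.16% rose and 10.3% fell in α cells, 5.44% rose in δ cells, and 4.07% rose and 6.22% fell in Ppy-high cells. In endothelial cells 14.7% of all genes rose and 19.5% fell, and in leukocytes 16.7% fell. Their median log2 difference was 0.58 in α cells and -1.66 in endothelial cells, against -0.12 and -0.34 over all genes. Gnas, which encodes the stimulatory G protein subunit, rose by 1.69 ± 0.21 in α cells (adjusted p = 2.53e-14, edgeR) and by 1.30 ± 0.21 in δ cells. Peg3, a paternally expressed zinc finger gene, fell by 3.62 on the log2 scale in endothelial cells (SE 0.38, adjusted p = 1.17e-19, edgeR).

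Kcnq1ot1, the antisense RNA of the Kcnq1 domain, was higher in α cells than in β cells. It had 31.4, 35.9 and 93.2 CPM in β cells and 79.04, 96.0 and 146 in α cells, in the order mutant 1, mutant 2, control 2. The log2 difference was 1.09 ± 0.24 (adjusted p = 0.000109, edgeR), higher in 3 of 3 libraries, and DESeq2 gave 1.11 with an adjusted p of 0.0513. Kcnq1ot1 was the one member that rose in α cells, where 8.16% of all genes rose. With insulin as the guide, free RNA would bring 1.10 of the 40 UMIs in mutant 1, 1.30 of 59 in mutant 2 and 0.871 of 34 in control 2.

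In δ cells Kcnq1ot1 had 48.1, 106 and 117 CPM and rose by 0.84 ± 0.27 (adjusted p = 0.0214, edgeR). That call was made under 4 of 12 alternative settings. It was lost with each cell thinned, without mutant 1 (0.90, adjusted p = 0.0971) and without mutant 2 (0.48, adjusted p = 0.554). With Meg3 it made 2 members that rose in δ cells, where 5.44% of all genes rose, and in Ppy-high cells Meg3, Rian and Malat1 made 3, where 4.07% rose. In Ppy-high cells Kcnq1ot1 had 76.2, 55.9 and 144, with a difference of 0.84 ± 0.31 (adjusted p = 0.063, edgeR).

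Endothelial cells held 3, 3 and 5 Kcnq1ot1 UMIs, or 35.4, 28.5 and 15.4 CPM. The fitted difference of -1.47 ± 0.46 (adjusted p = 0.00566, edgeR) rested on control 2, and without that library it was 0.087 (adjusted p = 0.946). Kcnq1 itself rose by 5.02 ± 0.47 in endothelial cells (adjusted p = 3.85e-25, edgeR), and without strand its reads could be counted for Kcnq1ot1. Leukocytes held 3 Kcnq1ot1 UMIs against 9.05 at the β-cell level, a ratio of 0.331 (0.0684 to 0.969).

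The coding genes of the Kcnq1 domain went both ways. Of 7 domain genes tested, Kcnq1ot1 included, 2 rose and 3 fell in α cells, where 8.16% of all genes rose and 10.3% fell. Cd81, a membrane tetraspanin, rose by 1.38 ± 0.22 in α cells (adjusted p = 1.91e-08, edgeR) and by 3.85 ± 0.22 in endothelial cells. Trpm5, a cation channel of β cells, fell by 2.93 on the log2 scale in α cells (SE 0.33, adjusted p = 5.2e-17, edgeR).

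Snhg11 was the least counted of the 7. It had 9.51, 14.99 and 16.4 CPM in β cells, from 43, 73 and 285 UMIs, and 7, 9 and 2 UMIs in α cells. Its log2 difference was -0.06 ± 0.49 in α cells (adjusted p = 0.959, edgeR) and -0.31 ± 0.59 in δ cells (adjusted p = 0.836, edgeR), and errors of this size leave changes near 1 on this scale undetectable at this depth. Ppy-high cells held 3 Snhg11 UMIs against 6.44 at the β-cell level, a ratio of 0.466 (0.0960 to 1.36). Endothelial cells held 0 against 7.72, with an interval of the ratio from 0 to 0.478. In leukocytes both levels lay under the floor of 3 counts and no fold is given.

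With Snhg11 and Mirg included, all 7 members were called lower in endothelial cells than in β cells, where 19.5% of all genes fell and 14.7% rose. Without 1 library 3 to 5 were called. Malat1 was lost without any 1 library, Mirg without mutant 2 or control 2, and Kcnq1ot1 without control 2. In mutant 1 alone Mirg and Kcnq1ot1 were above their β-cell level, by 0.57 and 0.39 on the log2 scale. The call for Snhg11 rests on 0 UMIs, and Snhg11 passed the filter on low counts only through its β-cell sums. That call therefore lends no support, and Snhg11 was not tested when any 1 library was left out. In leukocytes 4 members were called lower, Malat1, Neat1, Meg3 and Rian, where 16.7% of genes fell and 5.2% rose. The median log2 difference of the 7 members was 0.13, 0.63 and 0.67 in α, δ and Ppy-high cells, against -0.12, -0.12 and -0.21 over all genes. It was -2.09 in endothelial cells and -2.88 in leukocytes, against -0.34 and -1.69. Snhg11 in both of these classes and Mirg in leukocytes enter with differences fitted from 0 UMIs, so these medians lend no support. In leukocytes Meg3 (-3.11) and Rian (-2.88) lay below the -1.69 of all genes. Neat1 (-1.52), Kcnq1ot1 (-1.43) and Malat1 (-0.73) lay above it. Among small nucleolar RNA hosts, Snhg11 included, 3 of 16 tested rose and 1 fell in α cells and 5, Snhg11 among them, fell in endothelial cells. In α cells 8.16% of all genes rose and 10.3% fell. Gas5, a host known for its growth arrest regulation, rose by 1.10 ± 0.22 in α cells (adjusted p = 1e-05, edgeR), while Snhg18 fell by 2.55 on the log2 scale (SE 0.45, adjusted p = 4.92e-07, edgeR). Among 10 other long noncoding RNAs tested, 3 rose in α cells, and Norad, known for binding Pumilio proteins, had a difference of -0.23 ± 0.21 there (adjusted p = 0.509, edgeR).

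Over the 18 profiles, the genes whose log2 levels were most like those of each member were found among 6811 genes by Pearson's r, which is descriptive because the profiles share libraries and depth. Nearest to Malat1 were Rpl10 (r = 0.960), mt-Co2 (0.933) and Rpl6 (0.932), which encode ribosomal proteins and a mitochondrial oxidase subunit. Nearest to Neat1 were Papss2 (0.861), Sgcz (0.850) and Ins2 (0.831). Nearest to Meg3 were Hnf4a (0.985), a transcription factor, Nipal2 (0.979) and Pcsk2 (0.976), the prohormone convertase of endocrine cells. For Rian, Mirg, Kcnq1ot1 and Snhg11, 2 to 7 of the 18 profiles held no UMI, and the nearest genes, Gnptg, Pgf, Immp1l and Sim1, rest partly on those zeros. Between members, r was 0.803 for Meg3 and Rian, 0.862 for Meg3 and Mirg and 0.662 for Rian and Mirg. Some pairs on different chromosomes lay in the same range, with 0.825 for Meg3 and Snhg11 and 0.754 for Malat1 and Rian. For Malat1 and Neat1 r was -0.058.

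The study's question was how β cells of mutant and control mice differ, and with 1 control library the members could be described but not tested. For this comparison the 3 β-cell sums were scaled by TMM on their own, so the levels differ from those above. Ratios of mutant 1 and mutant 2 share control 2. Malat1, Rian, Kcnq1ot1 and Meg3 were lower in both libraries labelled mutant, and Neat1 was slightly higher. Malat1 stood at 359 and 486 CPM in mutant 1 and mutant 2 and at 1927 in control 2. The control 2 level was 5.37-fold that of mutant 1 and 3.97-fold that of mutant 2.

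Among 4761 genes whose mean over the 3 sums reached 20 CPM, 2.08% had a lower mean log2 ratio than Malat1. Rian had 32.8, 46.2 and 167 CPM, 5.07-fold and 3.61-fold higher in control 2. Kcnq1ot1 had 17.1, 19.8 and 60.3, 3.51-fold and 3.05-fold higher. Meg3 had 375, 436 and 742, 1.98-fold and 1.70-fold higher. The 95% Poisson intervals of these levels did not overlap between control 2 and either library labelled mutant, and they cover counting error only.

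Neat1 had 342, 352 and 277 CPM, with log2 ratios of 0.30 and 0.34 to control 2. Mirg had 10.7, 11.9 and 20.5 CPM and Snhg11 5.18, 8.24 and 10.6, under the level of 20 that was set for counting. Of the 5 members above it, 4 were lower by over 0.5 (log2) in both libraries labelled mutant and 0 were higher, where 32.7% of all genes were lower and 14.1% higher. Over all genes the ratios to control 2 had medians of -0.21 (mutant 1) and -0.22 (mutant 2), which moved with the scaling, to 0.42 and 0.40 with all UMIs as the library size. On that scale Neat1 stood at 0.90 and 0.95 and Meg3 at -0.38 and -0.16, so the size of both rests on the scaling. The median gap between the ratios of mutant 1 and mutant 2 was 0.13, and that of Malat1 was 0.44.

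**Figure D3:**
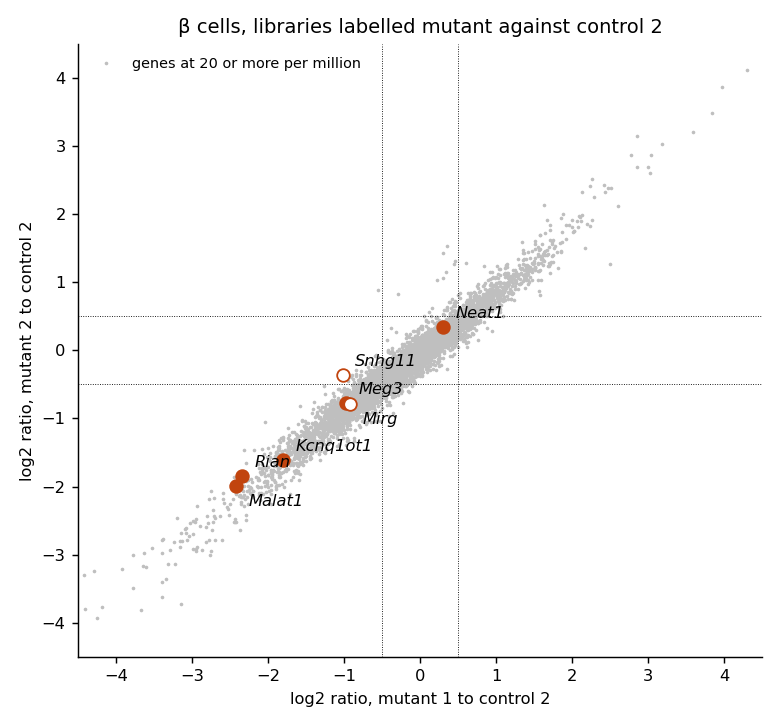
Log2 ratio to control 2 of β-cell CPM in mutant 1 (horizontal axis) and mutant 2 (vertical axis) for genes at 20 or more CPM (grey), with the 7 RNAs marked and those under 20 CPM drawn open. Malat1 (-2.42 and -1.99) and Rian (-2.34 and -1.85) sit far down the diagonal, Neat1 (0.30 and 0.34) just above the origin, and both axes share control 2.

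Depth differed between the libraries, and some members also moved with depth within a library. Within each library shallow β cells held larger shares of Malat1, Meg3 and Neat1. From the shallowest to the deepest of 5 equal groups of β cells, Malat1 went from 9.48 to 3.56 UMIs per 10000 in mutant 1, from 11.3 to 5.25 in mutant 2 and from 35.2 to 11.4 in control 2. Meg3 went from 7.45 to 3.99, from 8.57 to 4.68 and from 11.8 to 4.63, and Neat1 from 6.95 to 3.64, from 7.81 to 3.53 and from 3.98 to 1.82. In mutant 1 and mutant 2 most of these falls lay between the shallowest group and the next, where Malat1 was at 4.98 and 5.24. In control 2 Malat1 fell at each step. Malat1 was thus highest in the shallowest cells of each library but, between libraries, highest in the deepest. Among β cells of 3000 to 6000 UMIs (832, 624 and 288 cells), the log2 ratios of Malat1 to control 2 were -2.97 and -2.63 and those of Meg3 -1.33 and -1.14, larger than over all β cells. Those of Neat1 were 0.17 and 0.17. These depths are those of shallow cells in control 2, whose shallowest group had a median of 3464 UMIs and the next 9246.5. The middle groups of mutant 1 and mutant 2 had medians of 2765 and 4481. The window thus sets Malat1-rich shallow cells of control 2 beside cells of ordinary depth in the libraries labelled mutant.

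The library difference of Malat1 was seen in every class. On the scale of the 18 profiles, its log2 ratios of mutant 1 and mutant 2 to control 2 were -2.18 and -1.75 in β cells, -2.05 and -1.39 in α cells, -2.59 and -1.62 in δ cells and -2.42 and -1.74 in Ppy-high cells. They were -2.11 and -1.30 in endothelial cells and -2.80 and -1.997 in leukocytes. Rian was lower in both libraries labelled mutant in each endocrine class, with ratios from -2.33 to -0.97. The ratios of Neat1 ran from -0.35 to 0.58 and included both signs.

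Other gene groups also differed between the libraries, and their part in the result was not tested. Over all genes counted, 32.7% were lower in both libraries labelled mutant and 14.1% higher. Of 80 ribosomal protein genes, 68 were lower in both libraries labelled mutant, with medians of -1.59 and -1.52, and of 10 mitochondrially encoded messenger RNAs 8 were lower, with medians of -1.08 and -1.08. Of 5 small nucleolar RNA hosts 3 were lower and 1 higher. Gas5 had ratios of -1.98 and -1.63, Snhg18 -2.95 and -2.95, and Snhg20 0.96 and 1.08. Of 7 other long noncoding RNAs 2 were lower, Norad (-1.06 and -0.85) and Lncpint (-1.21 and -1.11), and 2 were higher, the X-linked Ftx (1.11 and 1.12) and Oip5os1 (1.16 and 1.07).

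Of 4 paraspeckle protein genes 3 were lower and 0 higher, where 32.7% of all genes were lower and 14.1% higher. Among the 3 were Tardbp (-1.20 and -0.94) and Sfpq (-0.77 and -0.61). Messenger RNAs known for nuclear retention went both ways, with 2 of 9 lower and 1 higher, as did those for speckle and splicing proteins, with 3 of 10 lower and 2 higher. In the Kcnq1 domain Tssc4 (-1.78 and -1.47) was lower like Kcnq1ot1, whereas Trpm5 (2.85 and 2.70) was higher. Among 10 other imprinted genes 5 were lower and 2 higher. Gnas had ratios of -1.34 and -1.10, and the 2 that were higher were Zim1 (2.84 and 3.15) and Rasgrf1 (1.999 and 1.92).

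Meg3, Rian and Mirg can also be set against one another, which needs no scaling between libraries. Of the summed UMIs of the 3 RNAs in β cells, Rian made up 7.83% in mutant 1 (95% binomial interval 6.96 to 8.77), 9.34% in mutant 2 (8.50 to 10.2) and 17.9% in control 2 (17.5 to 18.4). Meg3 made up 89.6%, 88.3% and 79.8%. Mirg made up 2.56%, 2.40% and 2.21%, with overlapping intervals. The Rian share of control 2 lay well apart from both libraries labelled mutant, whose intervals overlapped each other. With each cell thinned to 1000 UMIs the Rian shares were 7.76%, 8.47% and 17.9%, and over all kept cells 8.02%, 9.29% and 17.7%.

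In α cells the Rian share was 5.64%, 8.99% and 18.1%, with the interval of control 2 above both others. In δ cells it was 9.97%, 9.07% and 12.6%, and in Ppy-high cells 11.8%, 12.2% and 18.5%, with overlapping intervals. Across the 4 endocrine classes of 1 library the shares of Rian ranged from 5.64 to 11.8% in mutant 1, from 8.99 to 12.2% in mutant 2 and from 12.6 to 18.5% in control 2. Among these 4 endocrine classes the Mirg share was lowest in α cells of both libraries labelled mutant (0.973% and 1.18%) and reached 4.20% in Ppy-high cells of mutant 2, on 3 to 19 UMIs outside β cells.

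**Figure D4:**
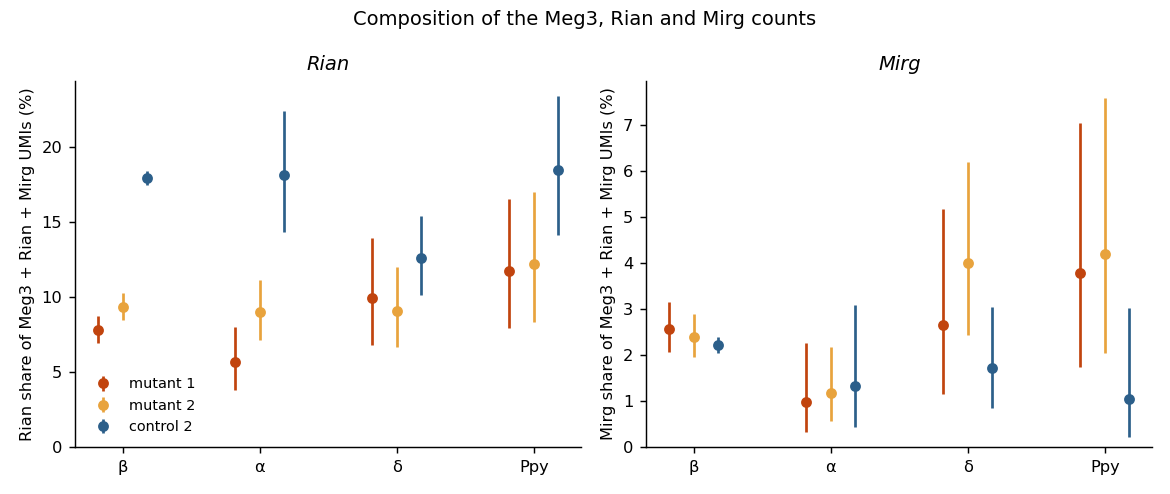
Share of Rian (left) and Mirg (right) in the summed UMIs of Meg3, Rian and Mirg, in percent, for 4 endocrine classes and 3 libraries, with exact 95% binomial intervals as bars. The Rian share of β cells is 17.9% in control 2 and 7.83% and 9.34% in the libraries labelled mutant, and the Mirg intervals mostly overlap.

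Malat1 was then followed from cell to cell. Its share is often read as the nuclear share of RNA in a barcode, and that reading was not tested here. The median β cell held 2.12 Malat1 UMIs per 10000 in mutant 1, 4.004 in mutant 2 and 11.4 in control 2. The tenth to the ninetieth percentile spanned 0 to 13.7, 0 to 14.6 and 2.68 to 41.0. A Malat1 UMI was missing from 45.0%, 25.4% and 4.16% of β cells, at the depths given above. At 1000 UMIs per cell the shares of β cells with a Malat1 UMI were 28.5%, 37.5% and 64.9%. The β cells of each library were put into 5 equal groups by their Malat1 share, which ties merged into 3, 4 and 5 groups.

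In control 2, Malat1 ran from 2.54 UMIs per 10000 in the lowest group to 58.1 in the highest. Meg3 went with it from 3.51 to 15.4, Rian from 1.02 to 2.50 and Kcnq1ot1 from 0.211 to 1.15, while Neat1 went from 2.31 through 1.98 to 4.05. The mitochondrial share of UMIs was 1.03% in the lowest and 2.45% in the highest group and the hormone share 60.8% and 47.5%. The ribosomal protein share was 2.48% and 2.21%. The median depth was 9703 UMIs in the lowest group, 20577 in the middle one and 7825 in the highest, so the β cells richest in Malat1 were also shallower, poorer in hormone transcripts and richer in mitochondrial ones.

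In the libraries labelled mutant the ranges of Meg3 and of the mitochondrial share were narrower. From the lowest to the highest group Meg3 went from 4.54 to 6.25 per 10000 in mutant 1 and from 4.96 to 8.74 in mutant 2, and the mitochondrial share from 1.19 to 1.57% and from 1.11 to 1.96%. Neat1 was 4.58 and 4.65 in the lowest and highest groups of mutant 1 and 4.64 and 6.54 in mutant 2. Because a lower hormone share raises every other gene, the highest group was also compared with the lowest outside hormone and mitochondrial genes. In control 2 the log2 difference was 1.33 for Meg3, 1.66 for Kcnq1ot1, 1.09 for Mirg, 0.58 for Rian and 0.39 for Neat1, where the median of all genes was 0.01 and the 95th percentile 1.04. Meg3 was above 98.3% of genes and Kcnq1ot1 above 99.7%.

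In mutant 1 and mutant 2 the differences were 0.47 and 0.64 for Meg3, 0.80 and 0.91 for Kcnq1ot1, 0.63 and 0.61 for Mirg, 0.70 and 0.35 for Rian, and -0.04 and 0.14 for Neat1. The Rian difference was larger in mutant 1 than in control 2, above 94.0% of genes against 82.6%, from 57 and 142 UMIs in mutant 1. The groups are unlike, since the lowest held 1378 of 2297 β cells in mutant 1 and 409 of 2043 in control 2. Kcnq1ot1 was past the 95th percentile of all genes in all 3 libraries, Meg3 and Mirg in control 2 only. For Kcnq1ot1 this rests on 34 UMIs in the highest and 79 in the lowest group of mutant 1, and on 40 and 49 in mutant 2. Messenger RNAs known for nuclear retention had median differences of 0.29, 0.13 and 0.35 in mutant 1, mutant 2 and control 2. These medians lay above 71.9%, 57.0% and 71.8% of genes. Over single β cells, Spearman's rho of the Malat1 share with the Meg3 share was 0.09, 0.16 and 0.54 in mutant 1, mutant 2 and control 2. It was 0.06, 0.03 and 0.20 with the Rian share, 0.05, 0.06 and 0.23 with the Kcnq1ot1 share and 0.16, 0.24 and 0.34 with the mitochondrial share. These cells share a library and differ in depth. At 1000 UMIs per cell the rho with Meg3 was 0.06, 0.09 and 0.24, and that with Kcnq1ot1 0.09, 0.007 and 0.09.

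**Figure D5:**
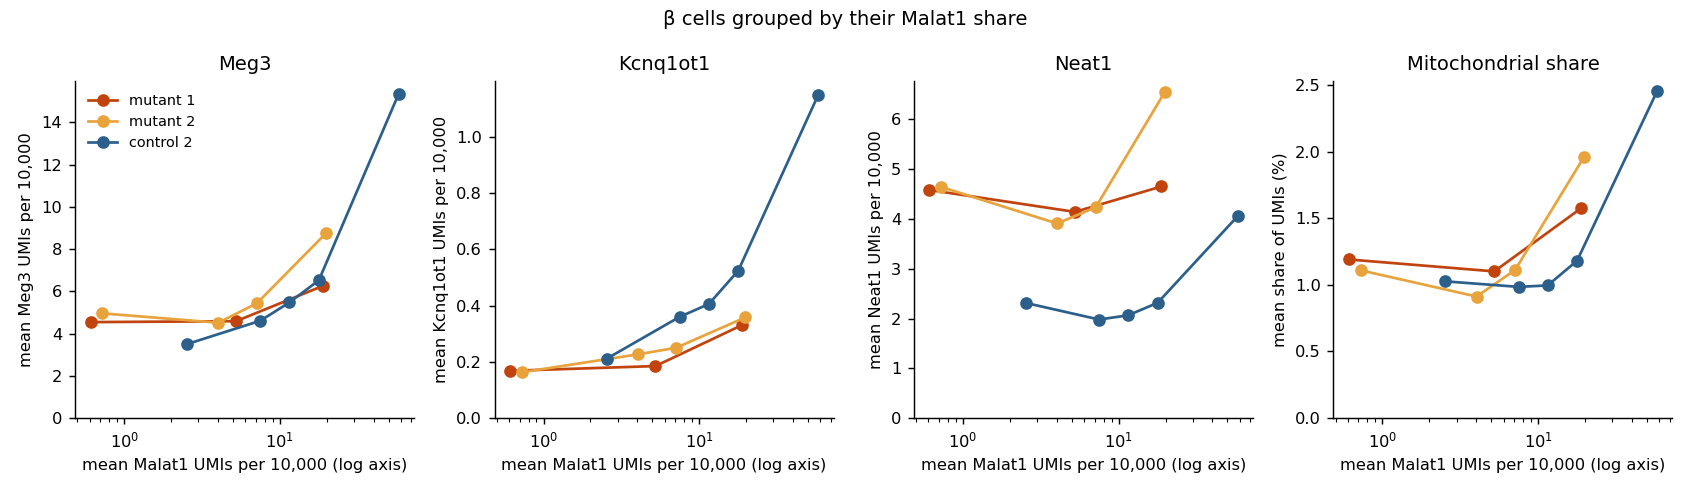
Mean Meg3, Kcnq1ot1 and Neat1 UMIs per 10000 and mean mitochondrial share of UMIs (vertical axes) in β cells grouped by Malat1 share, against the mean Malat1 UMIs per 10000 of the group (log axes), for mutant 1 (3 groups), mutant 2 (4) and control 2 (5). Meg3 goes from 3.51 to 15.4 and the mitochondrial share from 1.03 to 2.45% along the groups of control 2, and the lines of the libraries labelled mutant end at a Malat1 level near 20.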

How the data were processed

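Islet cells of 3 libraries were analysed, namely mutant 1, mutant 2 and control 2, and control 1 was not analysed here. The authors deposited UMI counts per gene and cell barcode as whole numbers, not normalized, and the labels name GRCm39 and Seurat. Aligner and strand setting are not given in the sources used here. Cells with at least 500 UMIs, at least 100 genes and at most 10% mitochondrial UMIs were kept, after the study's filter, and no doublet caller was run. The totals were 8448466, 9013499 and 36985253 UMIs, and intervals cover counting error only. UMIs were summed per library and class (at least 10 cells), filtered at 10 UMIs in at least 3 sums, and tested with library as a term by glmQLFTest of edgeR 4.0.16 in R 4.3.3, with Benjamini-Hochberg adjustment over all genes. β-cell ratios used TMM with a prior count of 1. DESeq2 1.42.0, other scalings, filters, thinning to 1000 UMIs, depth-matched cells, Leiden clusters (scanpy 1.11.5), doubled hormone cuts, cells without a second hormone and leaving out each library were alternatives. The edgeR fit was tested on simulated data. Intervals were computed with scipy 1.17.1 in Python 3.11.15.

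The members and gene lists were chosen with earlier results of these data known. The genes named besides the members were, per list, at most the 4 most highly counted and the called genes with the largest changes, and the 3 genes most like each member. An item of the sequence and gene lists is not reported here.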

Additional observations from a re-analysis of the deposited data

Results flagged for a closer look

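The following differences were singled out because the libraries labelled mutant moved one way and the compared group or library the other way, in every library. None of these differences was tested. The Mirg values of Ppy-high cells and the non-endocrine values rest on 10 or fewer UMIs per profile.

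Neat1 had log2 ratios to control 2 of 0.55 and 0.58 in β cells of mutant 1 and mutant 2 and of -0.35 and -0.21 in Ppy-high cells, so that the mean ratio of Ppy-high cells was -0.85 relative to β cells. Malat1 was higher in α than in β cells of mutant 1 (0.10) and mutant 2 (0.33) and was at -0.03 in control 2, a difference of 0.24 between the means. Mirg was higher in Ppy-high than in β cells by 1.38 and 1.59 in the libraries labelled mutant and was at -0.34 in control 2, a difference of 1.83, from 9, 10 and 3 UMIs. Read as ratios to control 2, the same values were 1.04 and 1.38 in Ppy-high cells and -0.68 and -0.55 in β cells, again 1.83 apart.

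Meg3 had ratios of 0.89 and 0.16 in leukocytes and -0.73 and -0.53 in β cells, 1.15 apart, with 5, 4 and 6 UMIs in leukocytes. Kcnq1ot1 had ratios of 1.29 and 0.98 in endothelial cells and -1.56 and -1.37 in β cells, 2.60 apart, with 3, 3 and 5 UMIs in endothelial cells.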

How the results depend on the processing

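No paired analysis was possible because mutant and control libraries with expression values share a single replicate number, and no test between genotypes was made. Of the 35 class differences, 20 were called, 13 with each cell thinned to 1000 UMIs and 12 to 20 when 1 library was left out. The 20 include Snhg11 in endothelial cells, a call that rests on 0 UMIs. In α cells 2 were called, 1 with DESeq2 and 4 with classes from Leiden clusters (2 to 3 without 1 library). In δ cells 3 were called, 5 with library sizes outside hormone and mitochondrial genes and 1 thinned (1 to 5 without 1 library). In Ppy-high cells 4 were called, 1 without the filter on low counts and 1 thinned (1 to 6 without 1 library). The thinned call of δ and of Ppy-high cells was that of Neat1, so no rise of a member was called there after thinning. No Leiden cluster stood for Ppy-high cells. In endothelial cells 7 were called, and 3 to 5 without 1 library, where Snhg11 was not tested. The endothelial difference of Kcnq1ot1 ranged from -1.92 to 0.087 without 1 library and turned without control 2. Over 368 alternatives for single differences, 38 lost a call, 12 gained one and 1 turned. With CPM of all UMIs, with CPM outside hormone and mitochondrial genes and with the mean over cells, 3 members in place of 4 were lower in both libraries labelled mutant and 1 in place of 0 (Neat1) was higher. The other 6 settings, and leaving out mutant 1 or mutant 2, gave 4 and 0. Snhg11 in mutant 2 turned to 0.24 with CPM of all UMIs and 0.42 with the mean over cells. The cause of these changes was not tested. With few cells of the rarer classes, depth limits Mirg, Kcnq1ot1 and Snhg11 most.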

Other observations

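Barcodes that the mitochondrial limit removed from control 2 (25) held 109 Malat1 UMIs per 10000, against 15.7 in kept cells, and 35.9 Meg3 UMIs against 5.90. The 5 barcodes that it removed from mutant 2 held 11.7 Malat1 UMIs per 10000, against 6.56 in kept cells, and 7.02 Meg3 UMIs against 5.98.

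In the β cells richest in Malat1, other transcripts went with it more than any member did, chosen here after their values were seen. Outside hormone and mitochondrial genes, Cmss1 differed by 3.27, 2.66 and 2.86 on the log2 scale between the highest and the lowest Malat1 group of mutant 1, mutant 2 and control 2. Camk1d, a calmodulin-dependent kinase gene, differed by 2.51, 2.06 and 2.44, and Gm19951 by 1.76, 1.88 and 3.30.

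Genes were also split by whether their longest annotated transcript held a run of 12 or more A. Whether priming inside transcripts had a part in the library ratios of β cells was not tested. Of 4761 genes, 98.0% were matched to a transcript. The 694 with a run of 12 or more A had median log2 ratios to control 2 of -0.22 and -0.21, and the 3972 without one had -0.21 and -0.23. Lower in both libraries labelled mutant were 31.8% of the former and 32.8% of the latter. Among genes with a transcript of 5000 bases or more, the shares were 25.1% of 386 and 24.5% of 986.

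Stromal cells, too few to be tested, held 5, 22 and 472 Malat1 UMIs, 2, 2 and 17 Neat1 UMIs and 3, 5 and 20 Meg3 UMIs in mutant 1, mutant 2 and control 2, of 6162, 9019 and 66410 UMIs in all. As a share of all UMIs, Malat1 was higher there than in β cells of each library (2975 of 7231259, 4300 of 7697185 and 51773 of 35459217).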
